A study of Mus musculus with 6 samples.

Results

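CTX-treated GFP+ Tri-PyMT cells were compared with untreated RFP+ Tri-PyMT cells across 11555 named protein-coding genes. These were the genes that reached 1 FPKM in 2 or more of the 4 samples, out of 20166 named protein-coding genes and 30743 features in the table. FPKM counts the sequenced fragments of a gene, scaled to transcript length and to the mapped fragments of the sample, so levels may be compared between genes and between samples. Tri-PyMT is a mouse breast tumor line. Its cells carry the polyoma middle T oncogene and a colour switch in which a Cre recombinase under the promoter of S100a4 (Fsp1), a gene used as a mesenchymal marker, turns the fluorescence from red to green for good. One group was 2 samples of sorted RFP+ cells, called non-EMT in the labels and not treated. The other was 2 samples of sorted GFP+ cells, called EMT in the labels, from cultures that had 4 µM 4-hydroperoxy-cyclophosphamide (CTX) in the medium over 7 days. All cells grew with 10% serum and went through the same sort, RNA isolation and library kit.

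The 2 groups differ in colour, in the drug and possibly in time in culture, so these cannot be told apart here. All samples came from 1 cell line, and the labels do not say whether samples of a group were separate cultures. The p-values then cover the spread among the 4 samples alone, and part of it may be technical. The population is measured as a whole, and fewer cells that express a gene cannot be told apart from less RNA of it per cell.

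Epithelial-mesenchymal transition (EMT) is the process in which epithelial cells lose their junctions and polarity and take on features of motile, matrix-producing cells. It is driven by transcription factors of the SNAIL, ZEB and TWIST families, which bind E-box motifs and repress junction genes. 4-hydroperoxy-cyclophosphamide breaks down in medium to the same products that the liver makes from cyclophosphamide. One product, a phosphoramide mustard, alkylates and crosslinks DNA, and the other, acrolein, reacts with glutathione. Aldehyde dehydrogenases and glutathione transferases detoxify these products, and DNA damage activates the transcription factor p53.

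CTX-treated GFP+ cells had less mRNA of 15 of 28 epithelial junction genes and 11 of 19 luminal mammary genes than untreated RFP+ cells, and more of a set of matrix genes. They also had more mRNA of drug-detoxifying enzymes, p53 targets, interferon-stimulated genes, cytokines and genes of squamous differentiation, and less of DNA replication genes. All 29 sterol synthesis and all 39 respiratory chain genes tested were lower, but only 7 and 16 of them passed the test below. In both of these lists the 2 RFP+ samples also differed from each other. Of the 11555 genes, 2535 (21.9%) were higher and 1966 (17.0%) lower in the CTX-treated GFP+ cells as deposited, in limma on log2(FPKM + 1) with Benjamini-Hochberg adjustment at 0.05. After median-ratio scaling of the samples these numbers were 2522 (21.8%) and 2212 (19.1%), and quantile normalization turned the balance, with 2175 higher and 2640 lower. In the text a gene rose or fell if it passed in both, which 2435 (21.1%) did upwards and 1931 (16.7%) downwards. The change was at least 1 on the log2 scale, that is 2-fold, in 899 of the former and 269 of the latter. The median change over all genes was 0.00 as deposited and -0.01 after scaling. The 2 groups did not overlap in 4590 genes that were higher (39.7%) and 4490 that were lower (38.9%), so a gene whose groups do not overlap is common here. Of the genes tested, 521 were under 1 FPKM in both RFP+ samples and 97 in both CTX samples, and such genes could enter only through the other group.

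Between 10871 and 11507 protein-coding genes reached 1 FPKM per sample, and 1 feature took 24.0 to 30.2% of the summed FPKM. The 2 groups differed in how close their replicates were. The log2 ratio of one replicate to the other had a robust SD, over genes, of 0.281 for the RFP+ pair and 0.0716 for the CTX pair. The value of 1 fragment in the low FPKM put the depth at about 27300000 fragments in both RFP+ samples and at 30200000 and 29200000 in the CTX samples. At that depth the CTX pair differed by 1.04 times the spread from counting alone in genes with 30 to 100 fragments and by 1.64 times in genes with 3000 to 30000 fragments, against 2.56 and 10.8 times for the RFP+ pair. The CTX samples are therefore close to repeat measurements of 1 population in all but the most abundant genes. With that pair averaged and counted as 1 sample, 363 genes (3.14%) were higher and 70 (0.606%) lower. Of these, 363 and 69 had also risen and fallen in the test above. Leaving out either CTX sample gave 358 or 375 higher and 69 or 71 lower, and leaving out RFP+ replicate 1 or 2 gave 4316 or 3968 higher and 3628 or 4422 lower. Counts from the stricter test, called the averaged test below, stand beside each gene group. The adjusted p given with a gene is from limma on the values as deposited.

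**Figure D1:**
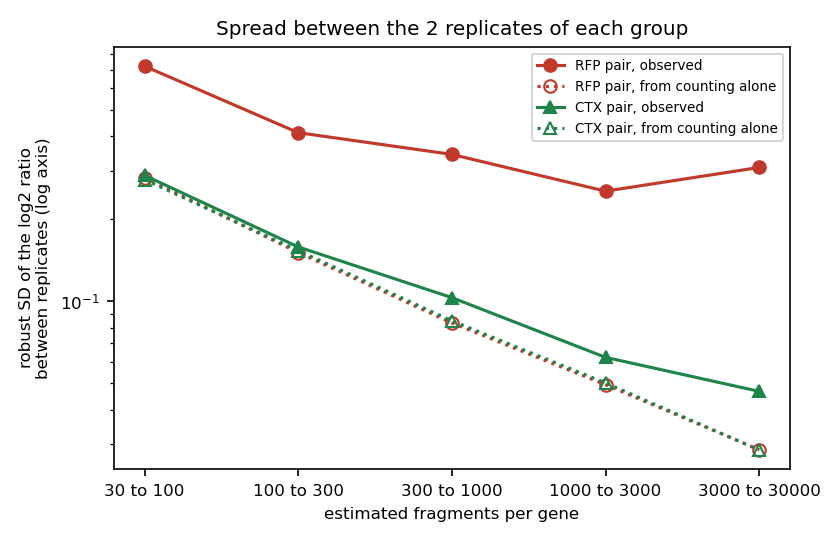
Spread (robust SD) of the log2 ratio of a group's 2 replicates (vertical, log axis) in genes binned by their estimated number of fragments (horizontal). Filled symbols are observed values and open symbols the spread that counting alone would give. The CTX pair lies 1.04 to 1.64 times above its counting line and the RFP+ pair 2.56 to 10.8 times.

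**Figure D2:**
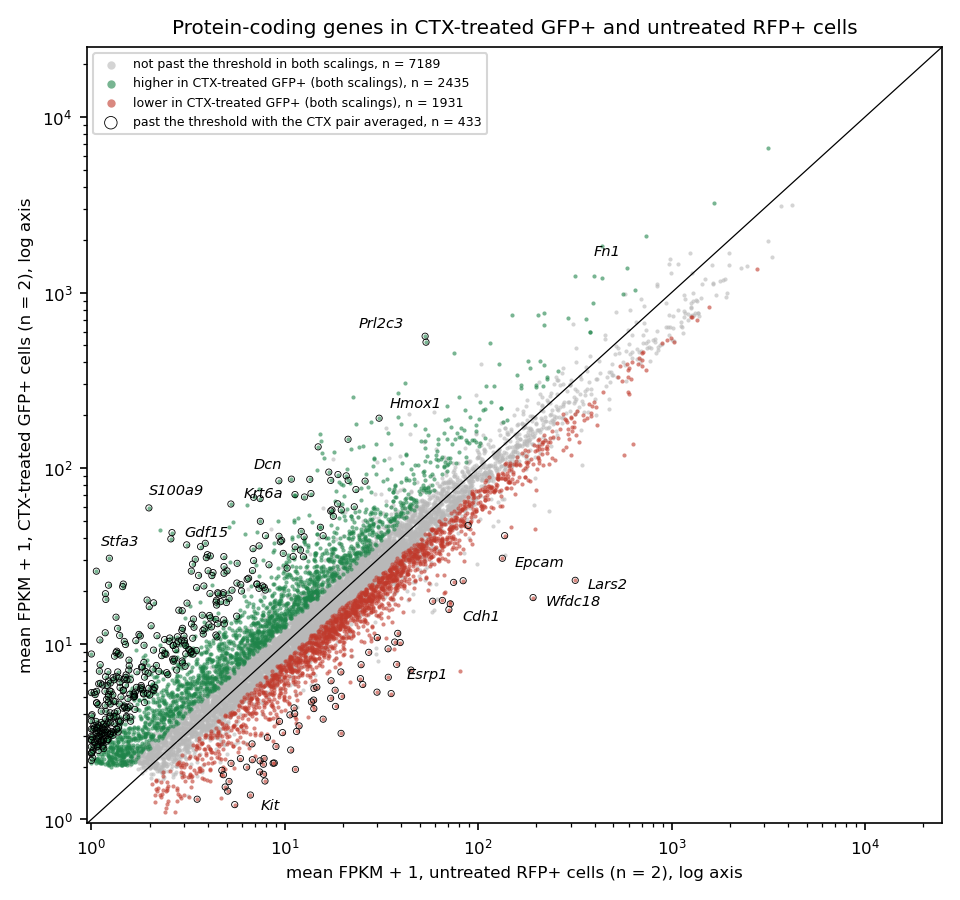
Mean FPKM + 1 of each of 11555 protein-coding genes in untreated RFP+ (horizontal) and CTX-treated GFP+ cells (vertical), both on log axes, with 2 samples per group. Green marks the 2435 genes that rose, red the 1931 that fell, and black circles the 363 and 70 genes past the averaged test. The circled genes lie far from the diagonal, most of them at low levels in the RFP+ cells.

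The labelled cell states were first set against their markers. Of the keratins of simple epithelium, Krt8 was at 276 and 383 FPKM in the RFP+ samples and 143 and 137 in the CTX samples, Krt18 at 141 and 229 against 86.7 and 81.4, and Krt19 at 18.6 and 22.7 against 10.95 and 11.4. All 3 stayed well expressed in both groups and all 3 fell. Vim, the intermediate filament protein of mesenchymal cells, was abundant in both groups, at 672 and 624 FPKM in RFP+ and 1048 and 1031 in CTX samples. The cells labelled non-EMT thus had high Vim beside their epithelial genes. S100a4, whose promoter drives the colour switch, was at 1261 and 704 FPKM in RFP+ and 1569 and 1539 in CTX samples. It was likewise abundant in both groups and did not pass the test (log2 change 0.72, SE 0.33, adjusted p = 0.154).

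Markers of other cell types were measured beside the immune and matrix genes below. Most were absent or low, except among the stromal fibroblast markers. Of 15 leukocyte markers 3 were tested and 3 rose, namely Cd68 (from 3.74 and 3.94 to 30.9 and 29.8 FPKM), Lyz2 (from 0.155 and 0.174 to 2.17 and 2.10) and Coro1a (from 0.546 and 0.259 to 1.17 and 1.05). The defining leukocyte gene Ptprc was at 0 and 0 FPKM in RFP+ and 0.0121 and 0.0128 in CTX samples, and Cd3e and Tyrobp were listed at 0 in all 4. Summed over the 15 leukocyte markers the level was 5.57 and 5.50 FPKM in RFP+ and 35.8 and 34.5 in CTX samples, most of it Cd68, a lysosomal protein that macrophages make in large amounts. None of 10 endothelial markers reached the filter, and their summed level was 0.353 and 0.452 FPKM in RFP+ and 2.55 and 2.64 in CTX samples. Of 7 adipocyte markers only Fabp4, a fatty acid carrier, was tested, and of the 4 erythroid markers in the table only the globin gene Hba-a2 (from 0.0913 and 0.0910 to 4.99 and 4.85 FPKM). Of 10 stromal fibroblast markers 6 were tested and Dcn and Pdgfra rose, while Lum was at 0.0482 and 0.0341 FPKM, Thy1 at 0.0196 and 0.104 and Fap at 0.286 and 0.319 in the CTX samples. Summed over these 10 the level was 111 and 85.5 FPKM in RFP+ and 161 and 164 in CTX samples. Most of the RFP+ sum was Postn, at 80.4 and 47.3 FPKM in RFP+ and 43.1 and 43.5 in CTX samples. Pdgfrb was at 10.1 and 8.75 FPKM in RFP+ and 8.07 and 8.22 in CTX samples. Postn, Pdgfrb, Col1a1 and Col3a1, the other members tested, did not pass. Lyz2, Coro1a and Hba-a2 entered only through the CTX samples and so could only be higher. The part of such cells in the results was not tested.

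Many junction genes fell. Epcam, an epithelial adhesion protein, was at 119 and 145 FPKM in the RFP+ samples and 30.6 and 28.7 in the CTX samples. Cdh1, the E-cadherin of adherens junctions, was at 61.96 and 79.5 against 16.1 and 15.7 FPKM. The RFP+ values of both genes lay about 4-fold above the CTX values, with ratios of group means of 4.46 and 4.45, and no sample crossed over. Epcam fell by 2.11 on the log2 scale (SE 0.13, adjusted p = 0.00385) and Cdh1 by 2.08 (SE 0.15, adjusted p = 0.00442). The tight junction claudins Cldn3 (66.7 and 72.4 against 15.7 and 13.7 FPKM) and Cldn7 (21.9 and 26.7 against 4.67 and 5.06) fell by 2.17 and 2.10. Lsr, the angulin that marks the points where 3 epithelial cells meet, was at 44.96 and 42.9 FPKM in RFP+ and 6.31 and 5.87 in CTX samples and fell by 2.66 (SE 0.08, adjusted p = 0.00284), more than any other junction gene. Of 28 adherens and tight junction genes tested, 15 fell and 2 rose, with a median of -0.59. In the averaged test 7 fell, namely Lsr, Cldn3, Epcam, Cldn7, Cdh1, Tjp3 and Marveld2. Marveld2 was under 1 FPKM in both CTX samples, entered only through the RFP+ samples and so could only be lower. The 2 that rose were the nectins Pvrl4 and Pvrl1. Genes of the same junctions that did not pass included Ctnnb1, Ctnna1, Cldn4 and Tjp1.

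Of 10 desmosome genes 2 rose and 2 fell, near the shares of all genes (21.1% and 16.7%). The desmoglein Dsg2 fell from 7.51 and 7.89 to 1.16 and 1.02 FPKM (log2 change -2.06, SE 0.09, adjusted p = 0.00346) while Dsg3, the desmoglein of basal and squamous cells, rose from 0.781 and 1.68 to 3.29 and 3.51. Pkp3, a plakophilin, fell from 16.1 and 18.3 to 6.49 and 6.32 FPKM and Perp, a p53-induced desmosome protein, rose from 86.3 and 102 to 147 and 139. Among 11 genes of hemidesmosomes and basal epithelium, the hemidesmosome collagen Col17a1 rose from 0.266 and 0.787 to 5.55 and 4.91 FPKM. The linkers Dst (from 19.8 and 23.6 to 48.1 and 48.2) and Plec (from 28.8 and 42.1 to 64.9 and 62.6) rose as well, and the laminin receptor subunit Itga3 fell (from 69.6 and 87.3 to 35.8 and 34.7). Of the same group only Col17a1 passed the averaged test, and of the desmosome genes only Dsg2. Col17a1 was under 1 FPKM in both RFP+ samples, entered only through the CTX samples and so could only be higher.

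Keratins split into 2 sets. The keratins of simple, luminal epithelium Krt7, Krt8, Krt18 and Krt19 fell, and the keratins of basal and stressed squamous epithelium Krt5, Krt6a, Krt6b, Krt15, Krt16 and Krt17 rose. Krt6a was at 2.58 and 5.94 FPKM in RFP+ and 62.1 and 60.9 in CTX samples (log2 change 3.65, SE 0.34, adjusted p = 0.00623). Krt16, its usual partner, was at 15.3 and 16.5 against 95.2 and 92.8 FPKM (log2 change 2.49, SE 0.09, adjusted p = 0.00305). Each of these rose in every CTX sample over every RFP+ sample, and the averaged test kept Krt5, Krt6a, Krt6b, Krt15 and Krt16. Krt15 was under 1 FPKM in both RFP+ samples and so could only be higher. Krt14, the basal keratin, was at 201 and 213 FPKM in RFP+ and 164 and 156 in CTX samples, and its lower level passed only after scaling (log2 change -0.37, adjusted p = 0.0553 as deposited and 0.0497 scaled).

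Regulators of the epithelial state fell together. Of 23 tested, 14 fell, none rose, and the median was -1.05. Esrp1, which sets epithelial splice forms, was at 38.9 and 34.9 FPKM in RFP+ and 6.52 and 6.75 in CTX samples (log2 change -2.31, SE 0.09, adjusted p = 0.00337). Grhl2, a grainyhead factor that activates Cdh1 and claudin genes, was at 13.9 and 15.7 against 2.80 and 2.64 FPKM (log2 change -2.08, SE 0.10, adjusted p = 0.00360). The membrane protease St14 fell from 56.6 and 74.2 to 18.6 and 18.2 FPKM. The averaged test kept 6 of the 14, namely Esrp1, Grhl2, Spint2, Elf5, Esrp2 and Ap1m2. Elf5 was among 3 of the 23 that entered only through the RFP+ samples and so could only be lower. Ovol1, Grhl1, Grhl3, Klf4 and Klf5, which also belong to this group, did not pass.

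Of 19 luminal mammary genes tested 11 fell, 3 rose and 5 did not pass (median -0.74). Wfdc18, a secreted whey acidic protein family member, was at 162 and 219.8 FPKM in RFP+ and 17.9 and 16.8 in CTX samples (log2 change -3.37, SE 0.17, adjusted p = 0.00367). Its relative Wfdc2 fell from 644 and 482 to 120.2 and 116 FPKM. Kit, the receptor of luminal progenitors, was at 6.01 and 5.28 FPKM in RFP+ and 0.345 and 0.411 in CTX samples (log2 change -2.27, SE 0.10, adjusted p = 0.00360). The 3 that rose were the EGF receptor ligand Areg, the milk fat protein Xdh and the water channel Aqp5. The averaged test kept Wfdc18, Kit and Cited1. Kit and Cited1 were among 4 of the 19 that were under 1 FPKM in both CTX samples. These entered only through the RFP+ samples and so could only be lower. The oestrogen receptor gene Esr1 did not pass, and the luminal factor Gata3 was lower only after scaling.

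**Figure D3:**
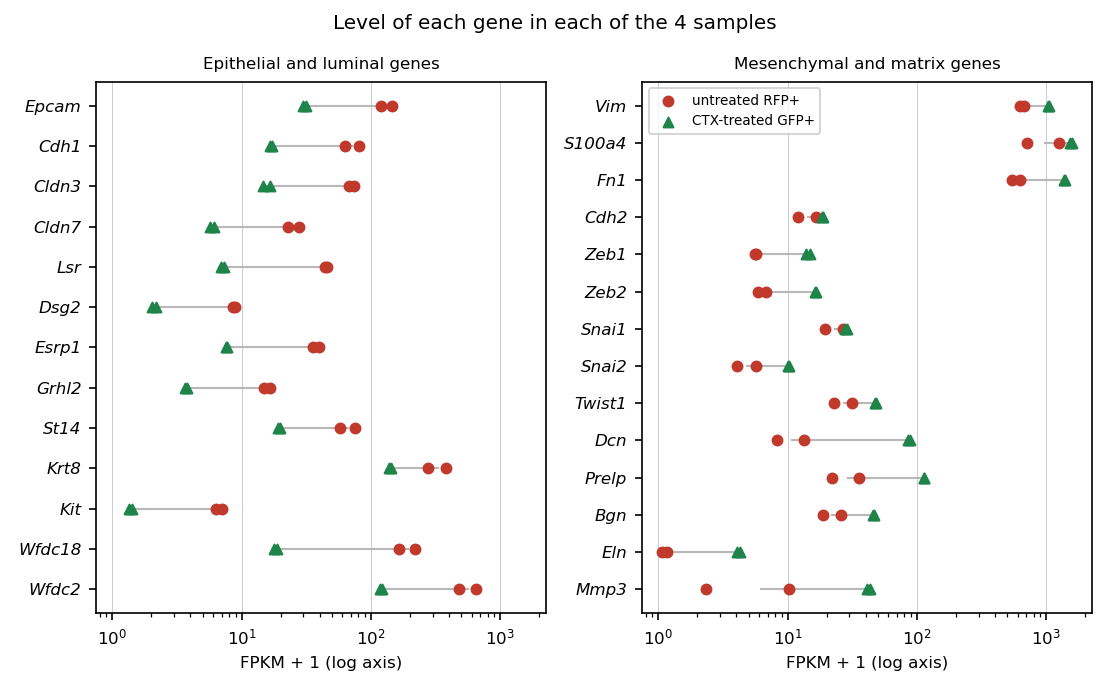
FPKM + 1 (horizontal, log axis) of epithelial and luminal genes (left) and mesenchymal and matrix genes (right) in each of the 4 samples. Red circles are RFP+ samples, green triangles CTX samples, and grey lines join the group means. The groups are apart for each epithelial gene shown, and closest for S100a4, Cdh2 and Snai1 among the mesenchymal ones.

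Promoters were searched for the E-box CAGGTG, the motif that SNAIL, ZEB and TWIST family factors are known to bind. RefSeq promoters of the build GRCm38.p6, running from 250 bases before to 50 after the start, were found for 9358 of the 11555 genes and searched on both strands. CAGGTG was in a promoter of 20.4% of these genes. It was in 21.6% of the 1570 genes that fell and had a promoter, and in 20.8% of the 1956 that rose. Of the 48 genes that fell in the averaged test and had a promoter, 26 held it (54.2%), against 66 of 287 that rose there. Of all tested junction genes with a promoter, whether they fell or not, 14 of 22 held it (63.6%, with 1.55 promoters per gene against 1.28 overall) and of the epithelial regulators 6 of 12. A match is a description of the letters and not a binding site. The promoters of Epcam (chr17:87635729-87636028, plus strand), Cldn7 (chr11:69965171-69965470, plus strand) and Lsr (chr7:30973420-30973719, minus strand) are shown because they were among the junction genes that fell most and held 2, 2 and 4 matches, in capitals (CAGGTG, or CACCTG where the match is on the other strand). The matches start at -187 and -19 from the transcription start in Epcam, at -97 and -57 in Cldn7 and at -249, -219, -151 and -69 in Lsr.
Epcam: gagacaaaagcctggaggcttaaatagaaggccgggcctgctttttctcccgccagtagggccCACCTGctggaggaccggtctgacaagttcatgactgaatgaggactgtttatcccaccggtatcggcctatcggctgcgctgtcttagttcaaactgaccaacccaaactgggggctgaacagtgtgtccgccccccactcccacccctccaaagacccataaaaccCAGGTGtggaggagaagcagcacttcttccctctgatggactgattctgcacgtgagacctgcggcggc
Cldn7: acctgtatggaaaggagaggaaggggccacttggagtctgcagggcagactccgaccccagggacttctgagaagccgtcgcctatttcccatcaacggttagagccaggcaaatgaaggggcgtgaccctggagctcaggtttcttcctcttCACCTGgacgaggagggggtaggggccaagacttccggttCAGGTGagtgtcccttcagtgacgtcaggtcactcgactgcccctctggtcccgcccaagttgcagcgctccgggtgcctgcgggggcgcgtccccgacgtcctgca
Lsr: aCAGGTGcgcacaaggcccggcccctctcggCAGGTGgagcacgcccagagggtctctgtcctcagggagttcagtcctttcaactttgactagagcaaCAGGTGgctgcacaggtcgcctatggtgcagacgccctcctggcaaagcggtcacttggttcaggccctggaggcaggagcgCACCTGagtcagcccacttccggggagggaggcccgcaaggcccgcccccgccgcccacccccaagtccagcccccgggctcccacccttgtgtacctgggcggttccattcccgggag

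Mesenchymal markers rose in part. Of 19 tested, 9 rose and 1 fell, the median was 0.67, and only Dcn passed the averaged test. Fn1, the matrix glycoprotein fibronectin, was at 544 and 631 FPKM in RFP+ and 1385 and 1371 in CTX samples (log2 change 1.23, SE 0.16, adjusted p = 0.0109; 0.167 in the averaged test). Vim rose by 0.68 (SE 0.14, adjusted p = 0.0287). The collagen receptor Ddr2 rose from 4.05 and 3.93 to 11.4 and 8.81 FPKM and the platelet-derived growth factor receptor Pdgfra from 6.43 and 5.23 to 13.5 and 13.3. Cdh2, the N-cadherin that replaces E-cadherin in many EMT models, was at 15.7 and 11.01 FPKM in RFP+ and 17.6 and 17.6 in CTX samples and did not pass (log2 change 0.39, SE 0.18, adjusted p = 0.155). Acta2, the smooth muscle actin of myofibroblasts, fell from 18.05 and 20.1 to 9.75 and 10.03 FPKM. Col1a1, Col3a1, Postn, Cd44 and Tagln did not pass.

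Of 12 EMT transcription factors 6 rose and 3 fell, against 21.1% and 16.7% of all genes. Zeb1 was at 4.55 and 4.72 FPKM in RFP+ and 13.8 and 12.96 in CTX samples (log2 change 1.35, SE 0.08, adjusted p = 0.00385), and Zeb2 at 4.94 and 5.81 against 15.3 and 15.5 (log2 change 1.37, SE 0.10, adjusted p = 0.00469). Both lay nearly 3-fold higher in the CTX samples, by ratios of group means of 2.88 and 2.86. Snai2 rose from 4.72 and 3.02 to 9.29 and 8.997 FPKM and Twist1 from 22 and 30.4 to 46.1 and 47.04. Snai1 was the family member without a call, at 25.9 and 18.3 FPKM in RFP+ and 27.8 and 26.6 in CTX samples (log2 change 0.31, SE 0.18, adjusted p = 0.244). Prrx2 and Foxc2 rose, and Foxc1, Sox9 and Tcf4 fell, Foxc1 from 24.5 and 25.4 to 12.6 and 12.4 FPKM. Foxc2 was under 1 FPKM in both RFP+ samples, entered only through the CTX samples and so could only be higher. In the averaged test only Zeb1 passed.

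Some matrix genes rose and none fell. Of 31 matrix proteins tested 14 rose (median 0.49), and 2 in the averaged test. Eln, the precursor of elastic fibres, was at 0.0739 and 0.175 FPKM in RFP+ and 3.25 and 3.02 in CTX samples, and the elastic fibre partners Fbln1 (from 4.43 and 5.51 to 18.9 and 19.1), Fbln2 and Fbln5 rose too. The lysyl oxidase Loxl3, which crosslinks collagen and elastin, rose from 1.29 and 2.14 to 8.08 and 8.15 FPKM and the thrombospondin Thbs2 from 2.02 and 1.34 to 7.14 and 6.68. Eln and Fbln1 were the members kept by the averaged test. Eln was under 1 FPKM in both RFP+ samples and so could only be higher. Of 6 small leucine-rich proteoglycans tested, which bind collagen and growth factors, 4 rose. Dcn, the proteoglycan decorin, was at 7.31 and 12.3 FPKM in RFP+ and 84.01 and 87.2 in CTX samples (log2 change 3.04, SE 0.25, adjusted p = 0.00520). Prelp (21.1 and 34.9 against 112 and 112 FPKM), Podn (1.21 and 1.44 against 3.87 and 4.09) and Bgn (24.7 and 17.6 against 45.5 and 44.99) followed. Fibrillar collagens differed in level. Col1a1 was at 1.14 and 0.901 FPKM in RFP+ and 1.05 and 0.873 in CTX samples, Col3a1 at 4.93 and 10.5 against 10.9 and 10.3, and Col5a1 at 26.2 and 23.5 against 32.6 and 32.1. Of these only Col5a1 passed as deposited and after scaling (log2 change 0.37, SE 0.09, adjusted p = 0.0437).

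Matrix proteases and their inhibitors rose in 11 of 23 genes and fell in 2 (median 0.96). Mmp3, the stromelysin that cuts basement membrane proteins and E-cadherin, was at 1.35 and 9.16 FPKM in RFP+ and 40.3 and 41.96 in CTX samples (log2 change 3.11, SE 0.74, adjusted p = 0.0382). The second RFP+ sample lay far above the first, and both CTX samples far above the second. The collagenase Mmp13 (0.361 and 2.90 against 9.37 and 10.2 FPKM) showed the same pattern. Mmp10 rose from 0.263 and 0.741 to 5.18 and 5.71 FPKM and Mmp19 from 0.615 and 1.18 to 5.88 and 6.05, and both passed the averaged test, as did Serpinf1, Plat and Mmp28. Mmp10 was under 1 FPKM in both RFP+ samples and so could only be higher. The 2 that fell were the aggrecanases Adamts1 and Adamts5, of which Adamts1 passed the averaged test. Of 10 smooth muscle and contractile genes Acta2 and Tpm1 fell (Tpm1 from 600.1 and 732 to 395 and 386 FPKM). Des and Mylk rose, Des also in the averaged test. These shares were near the 21.1% that rose and 16.7% that fell among all genes. Des and Mylk were under 1 FPKM in both RFP+ samples and so could only be higher.

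Enzymes that detoxify cyclophosphamide products were higher in the CTX-treated GFP+ cells. Of 17 aldehyde dehydrogenase genes tested 10 rose and 1, Aldh16a1, fell (median 0.72, and 3 up in the averaged test). Aldh1a1, Aldh1a7, Aldh1l1 and Aldh3b2 were under 1 FPKM in both RFP+ samples and entered the test only through the CTX samples, so they could only be higher. Aldh3a1, which oxidises aldophosphamide, was at 36.5 and 111 FPKM in RFP+ and 457 and 452 in CTX samples (log2 change 2.81, SE 0.56, adjusted p = 0.0252; 0.115 in the averaged test). It was the most abundant gene of the family in the CTX samples, and the 2 RFP+ samples were far apart. Aldh1a1, the other enzyme known for this reaction, was at 0.181 and 0.234 FPKM in RFP+ and 4.43 and 5.18 in CTX samples (log2 change 2.26, SE 0.11, adjusted p = 0.00360). It rose from near absence but stayed far below the level of Aldh3a1. The mitochondrial folate enzyme Aldh1l2 rose from 2.97 and 2.70 to 10.9 and 11.4 FPKM and the proline-pathway enzyme Aldh4a1 from 5.80 and 6.92 to 19.8 and 19.6.

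Glutathione transferases, which join glutathione to electrophiles such as acrolein and nitrogen mustards, rose in 15 of 22 genes tested and fell in 1, Gstcd (median 0.73, and 5 up in the averaged test), while 2 of the 22 entered only through the CTX samples. Gsta1 was at 1.12 and 0.864 FPKM in RFP+ and 14.5 and 16.03 in CTX samples and Gsta2 at 0.372 and 0.377 against 8.02 and 7.62. These are near-identical copies whose reads could be split by the counting, so their separate values are uncertain. Gsta4, which conjugates lipid aldehydes, was at 36.1 and 47.02 FPKM in RFP+ and 119 and 121 in CTX samples (log2 change 1.52, SE 0.15, adjusted p = 0.00704). The microsomal Mgst2 rose from 4.64 and 4.70 to 28.1 and 27.3 FPKM (adjusted p = 0.00284) and the mu-class Gstm2 from 6.61 and 5.74 to 21.4 and 20.5.

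Glutathione supply and targets of NRF2, the factor that answers to electrophiles, rose in 17 of 38 genes and fell in 3 (median 0.62, and 4 up in the averaged test). Gclc, the catalytic subunit of the rate-limiting enzyme of glutathione synthesis, was at 16.01 and 19.6 FPKM in RFP+ and 90.8 and 91.2 in CTX samples (log2 change 2.30, SE 0.13, adjusted p = 0.00370). Hmox1, heme oxygenase, was at 34.5 and 25 against 193 and 190.4 FPKM (log2 change 2.66, SE 0.18, adjusted p = 0.00417), and the quinone reductase Nqo1 at 34.8 and 22.4 against 137 and 137 (log2 change 2.25, SE 0.23, adjusted p = 0.00704). These 3 genes rose about 5- to 6-fold with no overlap, by ratios of group means of 5.10, 6.44 and 4.79. The carbonyl reductase Cbr3 rose from 1.65 and 0.718 to 9.72 and 10.5 FPKM. The 3 that fell were the transketolase gene Tkt, the mitochondrial superoxide dismutase Sod2 and the glutathione reductase Gsr. Other NRF2 targets, among them Txnrd1, Prdx1, G6pdx and Me1, did not pass. The core letters TGACNNNGC of the antioxidant response element were in a promoter of 10 of 34 genes of this group (29.4%) against 16.9% of all.

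Cytochrome P450 genes and partners of the aryl hydrocarbon receptor rose in 9 of 15 genes, and none fell (median 0.68). Cyp1a1, the standard target of that receptor, was at 0.0205 and 0.266 FPKM in RFP+ and 4.83 and 4.85 in CTX samples (log2 change 2.36, SE 0.14, adjusted p = 0.00385). Tiparp, a second target that feeds back on the receptor, rose from 10.3 and 9.82 to 29.7 and 31.1 FPKM. Cyp2j6 (3.29 and 2.28 against 6.12 and 5.55 FPKM) and Cyp26b1, which breaks down retinoic acid (5.26 and 7.09 against 11.3 and 10.4), rose less. Of the same genes Cyp1a1, Tiparp and Cyp27a1 passed the averaged test. Cyp1a1 and Cyp27a1 were among 3 of the 15 that entered only through the CTX samples, being under 1 FPKM in both RFP+ samples.

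ABC transporters rose in 9 of 21 genes and fell in 2, the mitochondrial Abcb10 and Abcb8 (median 0.37, and 3 up in the averaged test), while 3 of the 21 entered only through the CTX samples. Abca1, the cholesterol exporter, rose from 1.97 and 2.07 to 9.04 and 9.17 FPKM. Abcb1a, one of the mouse P-glycoproteins that pump out many drugs, was at 0.694 and 0.932 FPKM in RFP+ and 4.69 and 4.63 in CTX samples (log2 change 1.65, SE 0.10, adjusted p = 0.00393). Abcc1, which exports glutathione conjugates, was at 24.98 and 29.8 against 47.3 and 46.99 FPKM (log2 change 0.77, SE 0.12, adjusted p = 0.0148), and Abcc4 and Abcc5 rose from 3.39 and 4.17 to 10.3 and 10.4 and from 6.70 and 7.15 to 17.8 and 20.7. Abcg2, a pump used to define side populations, was at 11.8 and 7.06 FPKM in RFP+ and 17.3 and 17.4 in CTX samples and passed only after scaling (adjusted p = 0.0558 as deposited and 0.0466 scaled).

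Of 17 genes of iron handling 4 rose and 4 fell, shares near the 21.1% and 16.7% of all genes, and none passed the averaged test. The iron uptake receptor Tfrc fell from 88.1 and 98.7 to 41.6 and 41.8 FPKM and the iron sensor Aco1 from 29.00 and 24.7 to 14.3 and 14.03. The iron store Fth1 rose from 3511 and 2766 to 6822 and 6535 FPKM and the reductase Steap1 from 18.98 and 13.7 to 30.1 and 30.3. Steap2 and Steap3 rose too, Cp and Slc40a1 fell, and the metallothioneins Mt1 and Mt2 did not pass.

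Targets of p53, the factor that DNA damage activates, rose. Of 41 tested 24 rose and 1, Trp53 itself, fell, with a median of 1.11. In 37 of the 41 the groups did not overlap upwards, against 39.7% of all genes. The averaged test kept 6. Cdkn1a, the inhibitor p21 that arrests the cell cycle, was at 16.5 and 58.7 FPKM in RFP+ and 265 and 265 in CTX samples (log2 change 3.04, SE 0.62, adjusted p = 0.0273; 0.118 in the averaged test). Mdm2, which targets p53 for breakdown, was at 28.5 and 53.1 against 305 and 306 FPKM (log2 change 2.94, SE 0.32, adjusted p = 0.00787). Both RFP+ samples lay well below both CTX samples, and the second RFP+ sample above the first.

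Gdf15, a secreted stress cytokine, was at 0.901 and 2.32 FPKM in RFP+ and 44.9 and 39.1 in CTX samples (log2 change 4.09, SE 0.30, adjusted p = 0.00452). Pmaip1, the BH3-only protein NOXA, was at 2.31 and 3.55 against 29.2 and 30.7 FPKM (log2 change 3.0, SE 0.18, adjusted p = 0.00385). Cd80, a costimulatory ligand of T cells that p53 can induce, was at 0.174 and 2.37 FPKM in RFP+ and 41.8 and 45.5 in CTX samples (log2 change 4.49, SE 0.54, adjusted p = 0.00969). Gdf15 and Pmaip1 passed the averaged test, as did Rnase4, Trp53inp1, Gadd45a and Ddit4l, and Cd80 did not at 0.0504. Trp53 went the other way, at 107 and 109 FPKM in RFP+ and 81.2 and 83.1 in CTX samples (log2 change -0.39, SE 0.09, adjusted p = 0.0342). Targets that did not pass included Bax, Zmat3, Sesn1, Btg2 and Tnfrsf10b. RFP+ replicate 2 itself was above replicate 1 by a median of 0.53 in these genes, and the CTX mean lay above replicates 1 and 2 by 1.35 and 0.88.

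Few BCL2 family genes, which set the threshold of cell death, changed. Of 15 tested, a smaller share moved each way than the 21.1% and 16.7% of all genes. The 2 that rose were Pmaip1 and the p53 target Bbc3 (PUMA, from 7.13 and 5.33 to 11.6 and 11.2 FPKM), and the 2 that fell were the BH3-only gene Bmf (from 4.14 and 2.55 to 1.43 and 1.36) and the effector Bak1 (from 61.9 and 53.6 to 37.9 and 38.2). Of these Pmaip1 alone passed the averaged test, and Bcl2, Bcl2l1, Mcl1 and Bax passed neither. Of 26 death receptors and caspases 13 rose and 2 fell (median 0.48). The inflammatory caspase Casp4 was at 10.8 and 12.3 FPKM in RFP+ and 38.2 and 41.2 in CTX samples (log2 change 1.70, SE 0.10, adjusted p = 0.00385), and it was the member kept by the averaged test. The death receptor Fas rose from 16.2 and 18.4 to 41.8 and 42.2 FPKM and the receptors Tnfrsf23 and Tnfrsf1b from 11.4 and 15.1 to 31.2 and 32.6 and from 10.3 and 16.8 to 32.2 and 31.7. The initiator Casp2 and the adaptor Fadd fell, and the executioner Casp6 did not pass.

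**Figure D4:**
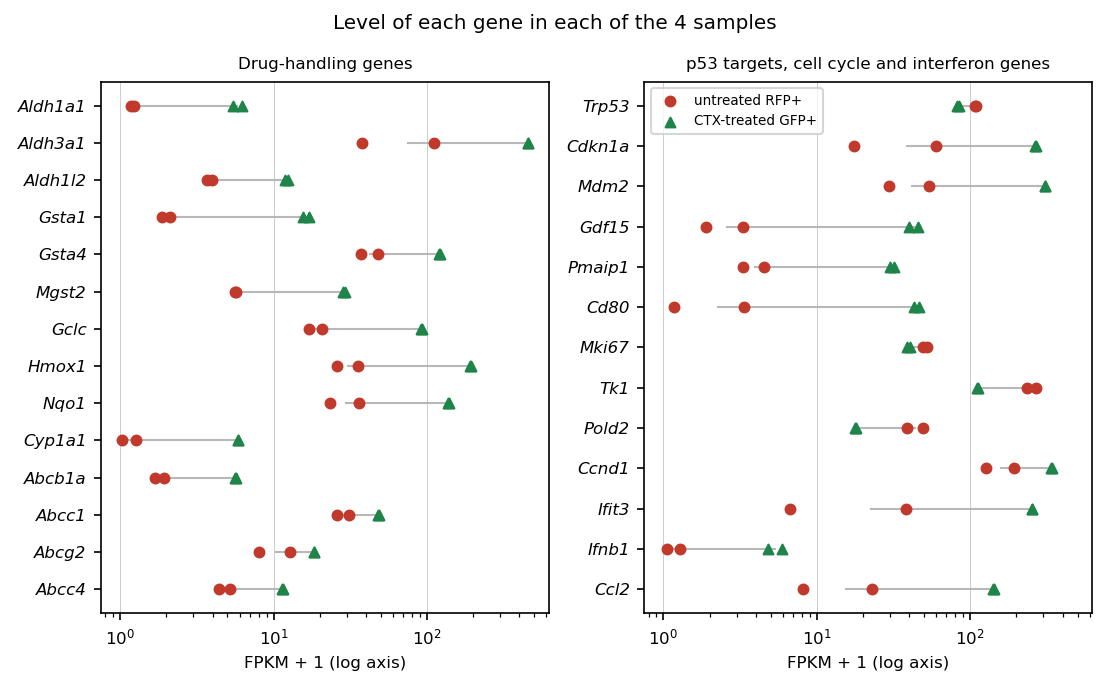
FPKM + 1 (horizontal, log axis) of drug-handling genes (left) and of p53 target, cell cycle and interferon genes (right) in each of the 4 samples. Red circles are RFP+ samples, green triangles CTX samples, and grey lines join the group means. The RFP+ samples are far apart for Aldh3a1, Cdkn1a, Cd80 and Ifit3, while the CTX samples nearly coincide.

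DNA repair genes did not rise with the p53 targets. Of 45 genes of crosslink and break repair, the pathways that remove mustard crosslinks, 9 fell and only Chek2 rose (median -0.10), and none did in the averaged test. The share that fell, 9 of 45, was near the 16.7% of all genes. H2afx, the histone variant marked at breaks, fell from 64.8 and 70.1 to 41.5 and 35.2 FPKM and the end-joining factor Xrcc6 from 31.6 and 34.9 to 21.8 and 21.4. The Fanconi genes Fancb (from 6.56 and 5.35 to 3.09 and 3.41) and Fancl (from 6.13 and 5.28 to 3.89 and 3.34) also fell, while Brca1, Brca2, Ercc1 and Ercc4 did not pass. Of 28 genes of alkylation and base repair 9 fell and 1 rose (median -0.13). Ung, the uracil glycosylase, was at 11.8 and 9.89 FPKM in RFP+ and 2.12 and 2.70 in CTX samples (log2 change -1.80, SE 0.14, adjusted p = 0.00490) and passed the averaged test. Parp1 fell from 33.9 and 33.97 to 17.4 and 17.01 FPKM. Mgmt, which removes alkyl groups from guanine, was the 1 that rose, at 1.72 and 1.77 FPKM in RFP+ and 4.35 and 3.74 in CTX samples (log2 change 0.88, SE 0.10, adjusted p = 0.00906).

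Replication genes fell, as did some mitosis genes. Of 43 DNA replication genes 25 fell and none rose (median -0.53). In 40 both CTX samples were below both RFP+ samples, against 38.9% of all genes. None passed the averaged test, in which 70 genes in all were lower. Tk1, the thymidine kinase of S phase, was at 267 and 232 FPKM in RFP+ and 109.8 and 111 in CTX samples (log2 change -1.17, SE 0.12, adjusted p = 0.00704). The polymerase delta subunits Pold2 (from 47.9 and 37.8 to 17.1 and 16.7 FPKM) and Pold1 (from 23.04 and 26.4 to 13.02 and 12.5) and the maintenance methylation factor Uhrf1 (from 89.7 and 79.9 to 41.4 and 41.5) fell, as did Mcm2 to Mcm7 and Pcna. Of 38 mitosis genes 10 fell and 2 rose (median -0.21), none of them in the averaged test. Over all genes 16.7% fell and 21.1% rose. Mki67, the proliferation marker, was at 51.4 and 47.9 FPKM in RFP+ and 37.8 and 39.4 in CTX samples (log2 change -0.35, SE 0.09, adjusted p = 0.0434). Foxm1, the activator of G2 genes, fell from 38.05 and 46.7 to 26.2 and 25.2 FPKM and cyclin Ccna2 from 91.1 and 81.9 to 54.1 and 54.98. The kinetochore motor Cenpe rose from 16.04 and 17.4 to 25.6 and 26.8 FPKM and Hmmr, a spindle and hyaluronan-binding protein, from 49.3 and 54.4 to 68.9 and 82.6.

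Regulators of the G1 phase included 3 genes that rose and 5 that fell among 18, against 21.1% and 16.7% of all genes. Beside Cdkn1a, cyclin Ccnd1 rose from 125 and 192 to 339 and 335 FPKM (log2 change 1.11, SE 0.24, adjusted p = 0.0295) and cyclin Ccnd2 from 0.274 and 0.254 to 4.06 and 4.62, the latter also in the averaged test. Their kinase partner Cdk4 fell from 223 and 182 to 114 and 112 FPKM, and Cdk2, Ccne1, Rbl1 and the inhibitor Cdkn1b fell too. Ccnd2 was under 1 FPKM in both RFP+ samples and so could only be higher. Myc did not pass. Replication-dependent histone genes, whose mRNAs mostly end without poly(A), rose in 17 of 27 tested with no fall (median 0.81, and 4 up in the averaged test). Hist1h2bc was at 11.1 and 14.2 FPKM in RFP+ and 67.8 and 73.6 in CTX samples, and Hist1h2bj at 2.60 and 3.57 against 14.1 and 12.9. Reads of the histone copies can be split between genes, and 8 of the 27 were under 1 FPKM in both RFP+ samples.

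Interferon-stimulated genes were higher in the CTX-treated GFP+ cells, with a large spread between the RFP+ samples. Of 36 tested 23 rose and 1, Ifi27l1, fell, with a median of 2.05. In 35 both CTX samples were above both RFP+ samples, against 39.7% of all genes. Ifit3, an antiviral RNA-binding protein, was at 5.71 and 37.1 FPKM in RFP+ and 253 and 252 in CTX samples (log2 change 3.99, SE 0.87, adjusted p = 0.0319; 0.127 in the averaged test). Ifit1 was at 9.22 and 44.7 against 180.2 and 186 FPKM, the antiviral enzyme Rsad2 at 1.37 and 6.94 against 44.7 and 45.8, and Ifi44 at 4.84 and 29.1 against 121 and 125. In each of the 4 the second RFP+ sample was several-fold above the first and the CTX samples several-fold above the second. Over the list RFP+ replicate 2 exceeded replicate 1 by a median of 1.40, and the CTX mean lay 2.82 above replicate 1 and 1.32 above replicate 2. Only Ifit2 passed the averaged test. Ifnb1, interferon beta itself, was at 0.0584 and 0.291 FPKM in RFP+ and 3.77 and 4.96 in CTX samples (log2 change 2.19, SE 0.17, adjusted p = 0.00488) and passed the averaged test. Ifnb1 entered only through the CTX samples and so could only be higher.

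The letters GAAANNGAA, the core of the interferon-stimulated response element, were in a promoter of 16 of 27 interferon-stimulated genes with a RefSeq promoter (59.3%). Over all tested genes the share was 8.37%, among risen genes 11.1% and among fallen genes 6.18%. The promoter of Ifit3 (chr19:34583279-34583578, plus strand, GRCm38.p6) is shown because it held 3 matches, in capitals (GAAANNGAA, here each on the other strand and so printed as its reverse complement), starting at -155, -121 and -102 from the transcription start.
Ifit3: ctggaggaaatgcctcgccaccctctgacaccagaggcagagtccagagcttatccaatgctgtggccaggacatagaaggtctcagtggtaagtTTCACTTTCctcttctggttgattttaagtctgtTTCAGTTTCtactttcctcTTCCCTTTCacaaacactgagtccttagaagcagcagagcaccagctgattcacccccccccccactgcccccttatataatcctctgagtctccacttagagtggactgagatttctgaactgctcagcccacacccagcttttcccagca

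Antigen presentation genes rose in 16 of 23 tested and none fell (median 1.21, and 2 up in the averaged test). Nlrc5, the activator of MHC class I genes, was at 1.41 and 3.07 FPKM in RFP+ and 15.5 and 15.1 in CTX samples (log2 change 2.38, SE 0.27, adjusted p = 0.00907). The class I gene H2-T22 rose from 7.74 and 9.88 to 33.7 and 29.7 FPKM and the light chain B2m from 563 and 915 to 2074 and 2123. The immunoproteasome subunit Psmb9 rose from 14.4 and 18.2 to 56.2 and 55.9 FPKM and the peptide transporter Tap1 from 10.1 and 22.5 to 46.9 and 45.6. H2-D1, H2-K1, H2-Q4 and H2-Q7 rose too, although reads of these similar genes can be split between them. Tapbp, Erap1 and Calr, which load peptides, did not pass.

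Chemokines rose in 8 of 16 genes tested and 1, Cxcl16, fell (median 1.06). Ccl2, which draws monocytes, was at 7.14 and 21.8 FPKM in RFP+ and 139 and 143 in CTX samples (log2 change 3.38, SE 0.52, adjusted p = 0.0153), and its relative Ccl7 at 1.5 and 4.26 against 37.8 and 34.9. Ccl5 rose from 14.9 and 29.8 to 175 and 178 FPKM and the interferon-induced Cxcl10 from 4.73 and 24.2 to 121 and 121. The averaged test kept Ccl7, Ccl4 and Cxcl9. Ccl4 and Cxcl9 were under 1 FPKM in both RFP+ samples, entered only through the CTX samples and so could only be higher. Cxcl1, Cxcl5 and Cxcl12 did not pass.

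Cytokines rose in 13 of 21 genes tested and none fell (median 0.93), and 7 passed the averaged test. Csf2, the granulocyte-macrophage colony-stimulating factor, was listed at 0 and 0.357 FPKM in the RFP+ samples and at 11.6 and 9.47 in the CTX samples. Il6 was at 8.37 and 8.58 FPKM in RFP+ and 36.96 and 37.3 in CTX samples (log2 change 2.01, SE 0.08, adjusted p = 0.00322), and Il11, of the same family, at 0.494 and 1.09 against 10.3 and 9.88. The 2 RFP+ values of Il6 were close to each other and far below both CTX values. Il1a, Il15 and Il33 also passed both tests. Tnf, Il18, Tslp, Tnfsf9 and Tnfsf11 rose only in the test of 4 samples. Of the 21 genes tested 6 were under 1 FPKM in both RFP+ samples.

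Growth factor genes changed member by member. In the EGF family 5 of 14 rose and 2 fell, against 21.1% and 16.7% of all genes. Areg, amphiregulin, was at 19.9 and 58.3 FPKM in RFP+ and 179.5 and 176 in CTX samples (log2 change 2.34, SE 0.53, adjusted p = 0.0342; 0.139 in the averaged test). Btc rose from 1.11 and 1.68 to 8.03 and 7.57 FPKM, also in the averaged test, and Nrg1 from 8.54 and 12.3 to 24.4 and 25.3. The receptor Erbb2 fell from 16.3 and 18.6 to 7.52 and 7.08 FPKM and Erbb3 fell too, whereas Egfr did not pass. Among 30 genes of the FGF, IGF and PDGF families 11 rose and 5 fell, and 3 did so each way in the averaged test. Over all genes 21.1% rose and 16.7% fell. Fgf7, the keratinocyte growth factor, was at 31.8 and 26.2 FPKM in RFP+ and 4.21 and 4.40 in CTX samples (log2 change -2.49, SE 0.12, adjusted p = 0.00360). Fgf13, an intracellular FGF homologue, fell from 8.46 and 12.2 to 0.874 and 0.980 FPKM and the IGF-binding protein Igfbp5 from 7.56 and 5.97 to 0.794 and 0.822. Fgf18 rose from 0.150 and 0.336 to 4.75 and 4.06 FPKM, and Fgf2 and Figf rose in both tests. Fgf18 and Fgf2 entered only through the CTX samples and so could only be higher. Fgf13 and Igfbp5 entered only through the RFP+ samples and so could only be lower.

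TGF-beta pathway genes, often taken as drivers of EMT, changed in few members. Of 30 tested 2 rose and 3 fell, smaller shares than among all genes, and the median was 0.04. Tgfbi, an extracellular matrix protein induced by TGF-beta, was at 0.401 and 0.572 FPKM in RFP+ and 3.14 and 3.55 in CTX samples (log2 change 1.55, SE 0.11, adjusted p = 0.00452) and was the member kept by the averaged test. Tgfbi was under 1 FPKM in both RFP+ samples and so could only be higher. The receptor Tgfbr1 rose from 14.6 and 12.4 to 18.3 and 19.3 FPKM. The inhibitor Id2 (from 86.4 and 71.2 to 56.4 and 53.3), the latency protein Ltbp1 (from 33.3 and 34.5 to 25.2 and 24.9) and the ligand Tgfb1 fell. Smad7, Skil and Inhba did not pass.

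In the Wnt and Notch pathways 6 of 28 genes rose and 7 fell, near the shares of all genes. The receptor Notch3 was at 0.376 and 1.31 FPKM in RFP+ and 7.61 and 7.14 in CTX samples (log2 change 2.23, SE 0.27, adjusted p = 0.0101) and the ligand Wnt9a at 0.255 and 0.867 against 6.17 and 6.01. The Wnt receptor Fzd6 fell from 21.5 and 14.9 to 6.78 and 6.81 FPKM and the ligand Wnt5b from 5.99 and 9.66 to 3.03 and 3.33. Of 21 targets and factors of YAP and TAZ 2 rose, Ptpn14 (from 10.7 and 15.8 to 29.6 and 28.99 FPKM) and Amotl1 (from 15.3 and 17.3 to 24.5 and 24.2), and 2 fell, the TEAD factors Tead2 (from 21.6 and 18.9 to 14.6 and 13.7) and Tead4 (from 14.5 and 13.1 to 10.6 and 10.1). Both shares were smaller than the 21.1% and 16.7% of all genes. None of the 21 passed the averaged test, and the standard targets Ctgf, Cyr61 and Ankrd1 passed neither test. Of the Wnt and Notch genes only Wnt9a passed the averaged test. Wnt9a was under 1 FPKM in both RFP+ samples and so could only be higher.

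Immediate early genes differed by member. Fosb was at 29.6 and 130.0 FPKM in RFP+ and 6.13 and 5.86 in CTX samples (log2 change -3.18, SE 0.73, adjusted p = 0.0356) and Fos at 119 and 273 against 45.1 and 43.5. Fosl1, the FOS relative found in invasive cells, went the other way, at 4.44 and 8.92 FPKM in RFP+ and 29.05 and 28.7 in CTX samples (log2 change 2.02, SE 0.31, adjusted p = 0.0151), as did the stress factor Atf3 (from 5.02 and 10.5 to 36.3 and 36.6). Of 24 genes 7 rose and 3 fell, against 21.1% and 16.7% of all genes, and none passed the averaged test. The CTX mean lay 0.74 above RFP+ replicate 1 and -0.27 from replicate 2 in the median of the list, so its direction depends on the RFP+ sample.

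Genes of the cornified envelope, the protein shell of squamous cells, rose steeply. Sprr1a was at 0.451 and 0.449 FPKM in RFP+ and 20.8 and 19.5 in CTX samples (log2 change 3.87, SE 0.08, adjusted p = 0.00149), Sprr1b at 0.0537 and 0.321 against 16.02 and 17.8, and Sprr2h at 0.0609 and 0.0606 against 27.5 and 22.4. Sprr2a1 rose from 3.40 and 1.94 to 35.3 and 34.2 FPKM. Both RFP+ samples were near 0 for most of these genes and both CTX samples far above. Of 17 tested 15 rose in both tests and none fell. Of the same 17 genes, 13 passed the filter only through the CTX samples, so that they could only be higher. A further 14 members in the table did not reach the filter, among them the late envelope genes Lor and Flg and the suprabasal keratins Krt1 and Krt10. Reads of the Sprr2 copies can be split between them.

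Related secreted and cytosolic protein families rose with them. S100a9, a calprotectin subunit of stressed epithelium and neutrophils, was at 1.05 and 0.918 FPKM in RFP+ and 57.7 and 59.1 in CTX samples (log2 change 4.91, SE 0.08, adjusted p = 0.000816). Its partner S100a8 was at 66.8 and 19.96 FPKM in RFP+ and 157 and 156 in CTX samples and did not pass. S100a7a rose from 0.123 and 0.245 to 5.77 and 5.23 FPKM, S100a14 from 3.33 and 3.67 to 17.9 and 19.2 and S100a16 from 12.05 and 12.2 to 29.3 and 28.1. Of 14 S100 genes 6 rose, 3 of them in the averaged test, and none fell. S100a7a was among 2 of the 14 that entered only through the CTX samples and so could only be higher. Of 22 serpins and cystatins tested 16 rose, 7 of them in the averaged test, and 9 were under 1 FPKM in both RFP+ samples. The stefin Stfa3, a cathepsin inhibitor, was at 0.318 and 0.158 FPKM in RFP+ and 30.1 and 29.3 in CTX samples (log2 change 4.64, SE 0.10, adjusted p = 0.00149). Serpinb9b rose from 0.134 and 0.0859 to 6.38 and 6.84 FPKM, Serpinb2 from 0.185 and 1.20 to 7.62 and 8.85 and Serpina3n from 7.67 and 6.22 to 40.8 and 39.9. Slurp1, a secreted keratinocyte peptide, rose from 0.309 and 0.615 to 21.2 and 20.6 FPKM. It too entered only through the CTX samples and so could only be higher.

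Some of the risen genes lay in neighbouring blocks. Gene order was that of GRCm38.p6, and genes not tested were passed over. There 17 runs of 4 or more neighbouring tested genes all rose by at least 1 on the log2 scale. They held 106 of the 899 genes that rose by that much. No such run fell, with 269 genes that fell by that much. The longest had 16 genes on chromosome 3, from Sprr2a1 over Ivl and the Lce3 genes to Rptn, in the epidermal differentiation complex. In that run Sprr2b, Sprr2d, Sprr2e, Sprr2h, Sprr1b, Sprr1a, Ivl, Lce3c, Crct1 and Rptn were under 1 FPKM in both RFP+ samples. These entered only through the CTX samples and so could only be higher. Others were 10 interferon-inducible genes on chromosome 1 from Aim2 to Ifi205, 7 class I genes on chromosome 17 from H2-D1 to H2-Q10, 6 genes around Ifit3 on chromosome 19 and 5 around Krt6a on chromosome 15. The Gsta genes on chromosome 9, the Stfa genes on chromosome 16 and the Serpinb genes on chromosome 1 also formed runs. Among them Gsta2, Csta, Stfa1, Stfa3 and Serpinb11 likewise entered only through the CTX samples. Neighbours in such blocks are often copies of each other that share reads, so they are not independent.

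The AP-1 motif TGANTCA was in a promoter of 9 of 16 cornified envelope genes with a RefSeq promoter (56.2%) and in 64 of the 287 that rose in the averaged test (22.3%). The share was 6.55% over all genes, 10.3% among those that rose and 5.35% among those that fell. In 53 of the tested genes an AP-1 match overlapped a TGACNNNGC match. The promoters of Sprr1a (chr3:92485832-92486131, minus strand, GRCm38.p6) and of Mmp3 (chr9:7445572-7445871, plus strand) are shown as examples from the envelope and protease groups. Their matches, in capitals, start at -146 and -116 in Sprr1a and at -46 in Mmp3.
Sprr1a: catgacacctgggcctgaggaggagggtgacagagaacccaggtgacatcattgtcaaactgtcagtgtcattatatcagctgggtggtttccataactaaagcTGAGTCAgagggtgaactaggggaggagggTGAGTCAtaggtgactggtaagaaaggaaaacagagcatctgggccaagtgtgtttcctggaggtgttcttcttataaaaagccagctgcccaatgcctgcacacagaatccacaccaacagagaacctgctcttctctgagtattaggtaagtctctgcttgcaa
Mmp3: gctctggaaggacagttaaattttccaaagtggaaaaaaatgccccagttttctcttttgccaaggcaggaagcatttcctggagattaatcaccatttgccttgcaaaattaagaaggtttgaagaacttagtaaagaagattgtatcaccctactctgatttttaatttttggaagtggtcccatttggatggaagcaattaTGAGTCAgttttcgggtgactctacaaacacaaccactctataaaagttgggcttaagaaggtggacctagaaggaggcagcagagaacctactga

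Other motifs were searched in the same promoters. Matches of GCGTG overlapped those of TGACNNNGC in 122 genes and those of CAGGTG in 13, and CAGGTG overlapped TGACNNNGC in 31. The letters GCGTG, the core of the aryl hydrocarbon receptor site, were in 56.5% of all, 47.8% of risen and 60.7% of fallen genes, and in 31.7% of those that rose in the averaged test. The grainyhead motif AACCGGTT was in 0.310% of all and the p53 response element in 0.0534%, too few to describe the groups.

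Prolactin family genes, placental in normal tissue, rose to high levels. Prl2c3 was at 36.3 and 67.97 FPKM in RFP+ and 562 and 564 in CTX samples (log2 change 3.47, SE 0.32, adjusted p = 0.00619), and Prl2c2, the proliferin, at 38.7 and 66.7 against 517 and 525. Prl2c5 (6.08 and 10.6 against 81.7 and 85.9 FPKM) and Prl2c1 (2.46 and 3.77 against 29.8 and 31.6) moved alike. The Prl2c genes are near-identical copies, and their rise may be counted more than once. With Prl8a9 5 of 7 tested rose in both tests. Prl8a9 was under 1 FPKM in both RFP+ samples and so could only be higher. The prolactin receptor Prlr, itself a luminal gene, fell.

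Among 20 surface markers and factors used for stem and progenitor cells 6 rose and 4 fell, against 21.1% and 16.7% of all genes. Procr, the protein C receptor of mammary progenitors, was at 6.32 and 5.48 FPKM in RFP+ and 70.02 and 64.4 in CTX samples (log2 change 3.31, SE 0.11, adjusted p = 0.00284). Ly6a, known as SCA-1, was abundant in both groups, at 416 and 453 against 1792 and 1864 FPKM, and rose by 2.07. Its relatives Ly6d (from 3.53 and 5.14 to 19.5 and 18.9) and Ly6c1 (from 87.7 and 48.9 to 229 and 222) rose as well. Procr and Ly6d passed the averaged test. Prom1, Sox9, Lgr4 and Bmi1 fell, and Cd44 and Cd24a, a pair used to sort breast cancer stem cells, did not pass. Prom1 was under 1 FPKM in both CTX samples, entered only through the RFP+ samples and so could only be lower. Of the 20 genes 1 entered only through the CTX samples.

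Sterol and fatty acid synthesis genes were lower in every member tested, though few passed. Of 29 tested 7 fell and none rose, against 16.7% and 21.1% of all genes, and the median was -1.29. In 28 both CTX samples were below both RFP+ samples, against 38.9% of all genes. Srebf2, the master regulator of the pathway, was at 112 and 71.9 FPKM in RFP+ and 36.6 and 35.4 in CTX samples (log2 change -1.29, SE 0.23, adjusted p = 0.0211). The fatty acid synthase Fasn was at 39.8 and 22.7 against 12.1 and 12.00, and the elongase Elovl6 at 51.7 and 19.7 against 8.13 and 8.50. In all 3 the second RFP+ sample lay between the first and the CTX samples. Over the list replicate 2 minus replicate 1 had a median of -1.38, and the CTX mean differed from replicates 1 and 2 by -1.97 and -0.69. None passed the averaged test.

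Respiratory chain genes encoded in the nucleus were lower in all 39 tested, of which 16 fell and none did in the averaged test (median -0.48). Over all genes 16.7% fell. In 36 both CTX samples were below both RFP+ samples, against 38.9% of all genes. RFP+ replicate 2 was below replicate 1 in all 39, with a median difference of -0.34. The CTX mean differed from replicates 1 and 2 by -0.61 and -0.32. Cyc1, of complex III, was at 154 and 142 FPKM in RFP+ and 87.5 and 84.4 in CTX samples (log2 change -0.78, SE 0.10, adjusted p = 0.0108). The ATP synthase subunits Atp5a1 (from 347 and 275 to 181 and 182 FPKM) and Atp5d (from 172 and 128 to 96.7 and 86.1) and the complex I subunit Ndufb5 (from 60.4 and 45.1 to 32.5 and 32.1) fell. Hypoxia and glycolysis genes rose in 14 of 34, with none falling (median 0.50). Ndrg1, a hypoxia-induced gene, was at 24.3 and 12.8 FPKM in RFP+ and 81.3 and 79.9 in CTX samples, and Vegfa, the angiogenic factor, at 48.9 and 54.96 against 130.4 and 129.8. The neuronal enolase Eno2 rose from 4.604 and 5.23 to 21.2 and 20.3 FPKM, the only member in the averaged test, and the oxidoreductase Ero1l from 40.2 and 38.6 to 104 and 107. The abundant enzymes Gapdh, Pgk1, Ldha, Eno1 and Pkm did not pass.

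Ribosomal protein genes were lower in all 60 tested, with no overlap between the groups in any, yet 5 fell by the test (median -0.70). Over all genes the groups did not overlap downwards in 38.9%. After median-ratio scaling alone 18 were lower by the test. Rps15 was at 1596 and 1111 FPKM in RFP+ and 712 and 681 in CTX samples, and Rpl3 at 988 and 794 against 510.2 and 518. Rpl14 and Rpl22 fell too. None passed the averaged test. RFP+ replicate 2 minus replicate 1 had a median of -0.55 on the log2 scale, against -0.95 and -0.42 for the CTX mean minus replicates 1 and 2.

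Lysosome genes rose in 21 of 33 tested and fell in 2, Ctsc and Gusb (median 0.56). The cathepsins Ctsb (108 and 107 against 216 and 215 FPKM), Ctsl (179.8 and 189.5 against 375 and 366) and Ctsz (37.1 and 40.3 against 81.9 and 82.7) each about doubled, with ratios of group means of 2.01, 2.01 and 2.13. The galactosidase Gla rose from 8.81 and 7.13 to 22.7 and 22.98 FPKM (adjusted p = 0.00540). Only Ctss and Ctsf passed the averaged test, and both were under 1 FPKM in both RFP+ samples and so could only be higher. Lamp1 and the regulator Tfeb passed neither test.

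Stress signalling of the endoplasmic reticulum differed gene by gene, with 5 of 32 up and 2 down (median 0.05, and Ddit3 and Vldlr up in the averaged test). Both shares were smaller than the 21.1% and 16.7% of all genes. Ddit3, the stress factor CHOP, was at 17.9 and 14.7 FPKM in RFP+ and 87.9 and 80.4 in CTX samples (log2 change 2.31, SE 0.13, adjusted p = 0.00383). Sesn2 (8.09 and 10.7 against 31.5 and 30.3 FPKM), the lipoprotein receptor Vldlr (3.72 and 4.01 against 11.98 and 12.01) and the chaperone partner Dnajb9 (8.56 and 7.74 against 16.2 and 16.03) rose with it. Hspa5, Atf4, Trib3, Asns and Herpud1, other standard markers of the response, did not pass.

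Among lipid-handling genes 7 of 16 rose, 2 of them in the averaged test, and Fabp5 fell. Fabp5, the epidermal fatty acid carrier, was at 869.7 and 389 FPKM in RFP+ and 138 and 134 in CTX samples (log2 change -2.09, SE 0.42, adjusted p = 0.0260; 0.134 in the averaged test), and its relative Fabp4 at 4.16 and 4.14 against 17.6 and 16.7 (log2 change 1.82, SE 0.08, adjusted p = 0.00346). The triglyceride enzyme Dgat2 rose from 2.42 and 1.72 to 9.13 and 8.45 FPKM and the droplet protein Plin2 from 56.1 and 74.8 to 157 and 157. Of 11 mineralization genes tested 6 rose and Enpp1 fell. The osteocalcin genes Bglap (from 0.0303 and 0.422 to 22.1 and 19.05 FPKM) and Bglap2 (from 0.0559 and 0.308 to 19.3 and 17.3), near-identical copies, rose in both tests. These 2 were among 4 of the 11 that entered only through the CTX samples and so could only be higher. Spp1, osteopontin, was at 1717 and 1575 FPKM in RFP+ and 3208 and 3217 in CTX samples, among the most abundant genes named here, and rose by 0.97. The osteoblast factor Runx2 did not pass, and the phosphatase Alpl passed only as deposited.

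The largest changes outside these groups were few. Of the 15 largest falls among genes with a mean of at least 10 FPKM in the higher group, Lars2, a mitochondrial leucyl-tRNA synthetase, led at 421 and 212 FPKM in RFP+ and 20.8 and 23.2 in CTX samples (log2 change -3.71, SE 0.36, adjusted p = 0.00660). The potassium channel gene Kcnk1 fell from 33.7 and 35.2 to 4.14 and 4.28 FPKM, the proton pump subunit Atp6v1c2 from 14.2 and 22.9 to 1.999 and 2.18 and the membrane protein gene Tmem54 from 36.9 and 29.6 to 5.26 and 5.64. All 4 passed the averaged test. Of the 15 largest rises, I830012O16Rik, next to Ifit3 in the genome, was at 3.93 and 24.6 FPKM in RFP+ and 156 and 156 in CTX samples, and Gm4902 at 1.06 and 3.16 against 34.8 and 36.4. The remaining genes of both sets are described above.

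**Figure D5:**
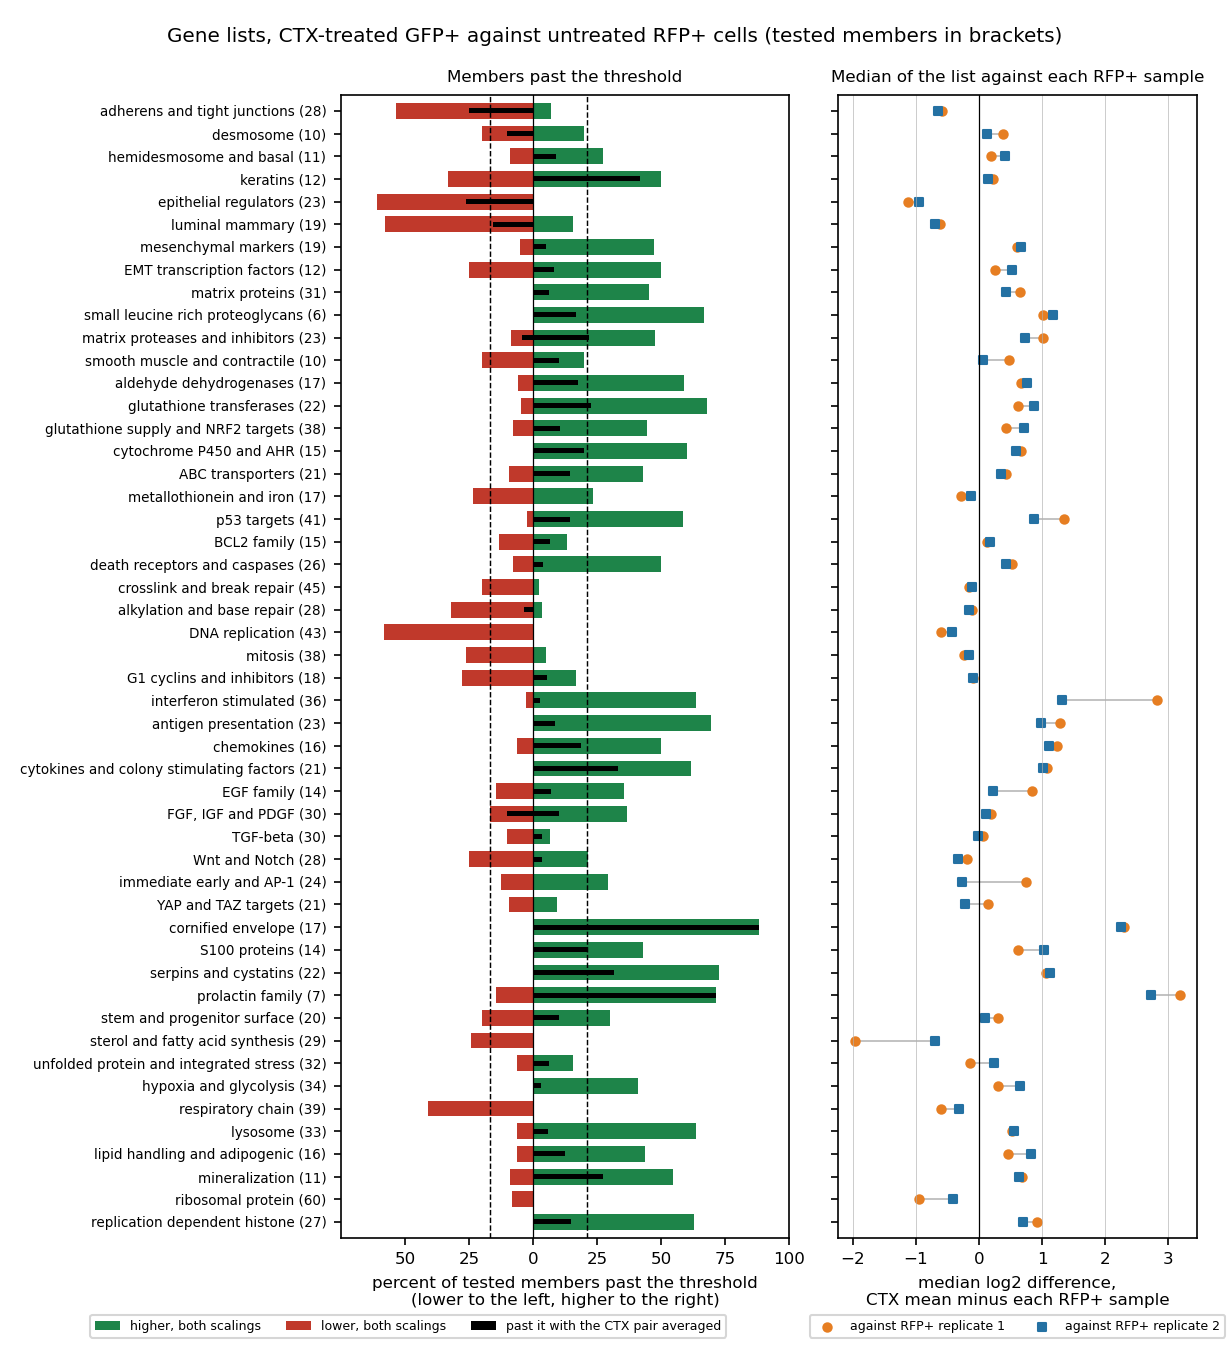
Left, percent of the tested members of each list that fell (red, to the left) or rose (green, to the right), with black bars for the averaged test and dashed lines at 16.7% and 21.1%, the shares over all genes. Right, median log2 difference of the CTX mean from RFP+ replicate 1 (orange circles) and replicate 2 (blue squares). The 2 points lie far apart for the interferon-stimulated, sterol synthesis and immediate early lists and close together for the junction, regulator and cornified envelope lists.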

How the data were processed

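TruSeq RNA libraries, per the labels' protocols, of 2 untreated RFP+ and 2 CTX-treated GFP+ samples were compared, and the untreated GFP+ columns were left out. The authors deposited 1 table of FPKM values per feature. Per the submitters' processing notes, CASAVA 1.8.2, FastQC, TopHat, Cufflinks, HTSeq and the mm9 build were used, and their roles, settings and annotation are not given in the sources used here. No read counts were used, and all tests ran on log2(FPKM + 1), which understates the change of low genes.

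Features with at least 1 FPKM in 2 of the 4 samples (12951, of which 11555 were named protein-coding genes) entered 1 two-sided limma fit with an intensity trend, and p-values were adjusted by Benjamini-Hochberg over all 12951. The fit was repeated after median-ratio scaling and with the CTX pair averaged to 1 sample. limma 3.58.1 ran in R 4.3.3, and Python 3.11.15 with pandas 2.3.3, numpy 2.4.6 and matplotlib 3.10.9 did the rest. The fit was tested on simulated data.

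The members and gene lists were chosen with earlier results of these data known. Named genes were the 15 largest changes each way with groups that did not overlap and a mean of at least 10 FPKM in the higher group, the 4 largest changes of each list at a mean of at least 3 FPKM, both past the threshold in both scalings, and a panel named whatever its values. Other list members, with or without a call, were named after their values were seen. Listed genes that the table does not hold under a matching name were not analysed here, and a few genes that the naming rule takes are not reported here. Promoter sequences and gene order came from RefSeq tables of GRCm38.p6, matched by symbol, while the FPKM rest on another build, so the FPKM carry no coordinates here. Depth was estimated from the FPKM worth of 1 fragment in 5950 genes with 1 coding transcript, and counting error alone was compared with the spread between replicates. Alternatives were other scalings, pseudocounts of 0.25 and 5, no filter, a filter at 5 FPKM, a fit of protein-coding genes alone, no trend, robust moderation, a replicate block and leaving out each sample.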

Additional observations from a re-analysis of the deposited data

How the results depend on the processing

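Of 218 named genes, 213 passed as deposited, and none of these changed direction under any alternative run. Calls lost numbered 1 after median-ratio scaling, 2 after quantile normalization, 2 and 1 with pseudocounts of 0.25 and 5, 41 without a filter on low values, 3 of 198 with a filter at 5 FPKM and 0 with a fit of protein-coding genes alone, without a trend or with robust moderation. The numbers of genes higher and lower stayed within 1.5 times the 2535 and 1966 as deposited in these settings (1713 to 3046 higher and 1486 to 2640 lower). With the CTX pair averaged 363 were higher and 70 lower (281 and 63 after scaling), and 89 of the 213 named genes kept their call (79 after scaling). Leaving out 1 sample gave 358 to 4316 higher and 69 to 4422 lower, and after scaling, without RFP+ replicate 1 or 2, 4001 or 4084 higher and 3986 or 4251 lower, and without CTX replicate 1 or 2, 297 or 282 higher and 68 or 62 lower. The low ends came without a CTX sample, where the other is assumed to vary like the RFP+ pair, and the high ends without an RFP+ sample, where the RFP+ group is assumed to vary like the CTX pair. The difference between replicates 2 and 1 correlated at -0.01 across genes between the groups. Since the CTX pair differed by little more than counting error, this value cannot show whether the replicate numbers pair the samples. With the replicate number as a block 2315 were higher and 1621 lower, and 12 named genes lost their call. Added after seeing the data, the block with scaling gave 2212 and 1753. With 2 samples a group, the estimate of spread rests on few degrees of freedom, and genes near 1 FPKM on few fragments.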
